A study of Mus musculus with 2 samples.

Results

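The 6 genes described here encode 5 kallikrein-related peptidases of the mouse epidermis, Klk5, Klk7, Klk8, Klk10 and Klk11, and Spink5, the inhibitor that holds such peptidases in check. They were taken by gene symbol and not by a cut on any measured value, though earlier results of these data were known. They are 6 of the 31053 genes counted in each of 2 single-cell libraries of whole skin. Kallikreins are secreted serine proteases that granular keratinocytes release into the spaces between the cells of the horny layer, where they cut the desmosomal proteins that hold those cells together and so let the skin shed. Klk5 can activate itself and then activates Klk7 and other kallikreins. LEKTI, the product of Spink5, binds kallikreins such as Klk5 and Klk7 and is known from Netherton syndrome, the human skin disease caused by its loss. The levels of the members were therefore compared between the layers of the epidermis and the upper follicle.

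Skin of 8-week-old C57Bl6 mice of both sexes, with no genetic change named, was injected intradermally either with 100 ng of sitagliptin, an inhibitor of the peptidase DPP4, in 100 µl of PBS, or with PBS alone. The labels give 48 h as the time, though the event from which it was counted is worded unclearly. The sitagliptin-labelled and the PBS-labelled group are 1 Chromium library each, and the sources used here do not give the number of mice in each. Each library's file names carry the first letter of the opposite treatment. Whether the labels were exchanged cannot be told from these sources, and an exchange would turn every direction below.

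With 1 library per treatment no difference between treatments could be tested, and the 95% intervals given below cover counting error only. Cells were retained from 500 genes and 1000 UMIs upwards where mitochondrial genes gave no more than 10% of the UMIs, namely 18380 of 22085 barcodes in the sitagliptin-labelled library and 5932 of 10456 in the PBS-labelled library, with a median of 2197 UMIs against 6902.5 UMIs per cell. A UMI marks 1 captured RNA molecule. Clusters were named from marker genes, with every Klk and Spink gene kept out of the clustering, and 61.7% of retained cells of the sitagliptin-labelled library against 8.85% of the PBS-labelled library fell in clusters that stayed unnamed. The barcodes of 41 retained cells occurred in both libraries. The granular-like class held 556 and 210 cells, the suprabasal or spinous-like class 1530 and 848 cells and the upper follicle-like class 1584 and 824 cells in the sitagliptin-labelled and the PBS-labelled library. Each class had all of its markers above 0 in both libraries, and the 10 granular markers, among them the cornified envelope genes Lor, Flg and Hrnr, summed to 7549 CPM against 8471 CPM in granular cells. CPM, counts per 1e6, are UMIs of a gene scaled to the UMIs of all genes, both summed over the cells of a class. Markers of macrophages summed to 2.07 CPM in granular cells of the sitagliptin-labelled library and 64.8 CPM in those of the PBS-labelled library, and those of fibroblasts to 1.84 and 28 CPM; their part in the results was not tested. Fewer cells of a kind and less RNA per cell cannot be told apart in sums of this sort.

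The 5 kallikrein genes lie on the forward strand of chromosome 7 within 76578 bases (mm10, GENCODE vM21). In their order along the strand they are Klk11 at chr7:43774604-43779263, Klk10 at chr7:43781035-43785410, Klk8 at chr7:43797577-43803826, Klk7 at chr7:43811294-43816359 and Klk5 at chr7:43841971-43851181, with Klk9 between Klk10 and Klk8 and Klk6 between Klk7 and Klk5. Spink5 lies on another chromosome, at chr18:43963235-44022501 on the forward strand. The annotation places a non-coding gene of the reverse strand, 2310002F09Rik, over the whole of Klk11 and Klk10 and over 382 bases of Klk8. That gene is not among the genes counted. The sources used here do not say whether counting used strand, and whether its reads entered the counts of these 3 was not tested. In the last 500 bases of their longest transcripts the members shared no 31-base word with another gene, except 1 of 470 words of Klk11, which also occurs in Klk12.

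The promoters of Klk5, Klk7 and Klk8 are shown because these 3 genes had the most alike levels across cell classes, and that of Klk10 because its levels followed another order. Each runs 250 bases before to 50 bases after a start site on the forward strand (RefSeq, GRCm38.p6). The Klk5 window lies wholly inside the GENCODE span given above for that gene, past the start of that span. So does the second window listed for Klk11, which is not shown. Capitals mark the only matches found to 5 motifs searched on both strands.

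Klk5 promoter, chr7:43842019-43842318: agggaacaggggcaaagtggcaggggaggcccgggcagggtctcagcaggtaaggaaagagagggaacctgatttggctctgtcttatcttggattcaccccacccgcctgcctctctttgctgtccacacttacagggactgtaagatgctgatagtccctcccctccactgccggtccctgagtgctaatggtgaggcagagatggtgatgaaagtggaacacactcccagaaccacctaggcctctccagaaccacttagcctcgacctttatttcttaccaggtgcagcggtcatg
Klk7 promoter, chr7:43811044-43811343: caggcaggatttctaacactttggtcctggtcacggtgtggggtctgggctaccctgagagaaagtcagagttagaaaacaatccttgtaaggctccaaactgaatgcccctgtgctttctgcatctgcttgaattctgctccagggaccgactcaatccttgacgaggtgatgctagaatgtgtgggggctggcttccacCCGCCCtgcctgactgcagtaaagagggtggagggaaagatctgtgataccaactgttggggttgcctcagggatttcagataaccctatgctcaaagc
Klk8 promoter, chr7:43797327-43797626: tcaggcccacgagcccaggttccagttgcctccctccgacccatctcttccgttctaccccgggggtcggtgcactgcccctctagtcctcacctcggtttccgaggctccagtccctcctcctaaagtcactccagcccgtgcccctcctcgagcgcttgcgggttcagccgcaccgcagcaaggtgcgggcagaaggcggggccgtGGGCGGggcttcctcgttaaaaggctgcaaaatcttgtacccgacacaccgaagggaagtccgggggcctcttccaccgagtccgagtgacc
Klk10 promoter, chr7:43780804-43781103: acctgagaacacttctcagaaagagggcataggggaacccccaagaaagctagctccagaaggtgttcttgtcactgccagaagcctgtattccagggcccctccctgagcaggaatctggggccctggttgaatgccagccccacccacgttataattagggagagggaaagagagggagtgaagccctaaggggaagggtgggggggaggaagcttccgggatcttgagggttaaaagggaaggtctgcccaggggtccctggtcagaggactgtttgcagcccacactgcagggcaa

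The match in Klk7 is CCGCCC, 49 bases before the start site, and that in Klk8 is GGGCGG, 42 bases before it. Both are the GC box GGGCGG read on one strand or the other, and 35.7% of the 32851 promoters in the table hold it. None of the 6 promoter windows listed for the 5 kallikreins held the TATA box TATAAA, which 13.6% of promoters hold, nor the AP-1 motif TGANTCA, which 7.81% hold. The same windows held neither the grainyhead motif AACCNGTT nor the E-box CACGTG, which occur in 2.09% and 7.15% of promoters. The motifs do not overlap one another in these windows. Spink5 has no sequence shown here.

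Klk5, Klk7 and Klk8 were highest in granular cells in both libraries. Klk5, the trypsin-like enzyme at the head of the cascade, had 568 CPM in granular cells of the sitagliptin-labelled library and 598 CPM in those of the PBS-labelled library. Spinous cells had 159 CPM of Klk5 against 133 CPM, upper follicle cells 43.7 against 45.3 CPM, and basal cells 13.0 against 8.64 CPM. The Klk5 level in granular cells was 3.57 times that in spinous cells in the sitagliptin-labelled library (95% interval 3.41 to 3.74) and 4.48 times (4.19 to 4.79) in the PBS-labelled library.

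Klk7, the chymotrypsin-like enzyme that cuts corneodesmosin and desmocollin, had 1090 CPM against 1133 CPM in granular cells. Its second level lay in the follicle, as did that of Klk10 below: upper follicle cells had 182 CPM (175 to 190) in the sitagliptin-labelled library and 179 CPM (171 to 187) in the PBS-labelled library, and spinous cells had 154 CPM (148 to 160) and 160 CPM (153 to 168). The intervals of these neighbouring levels did not overlap within either library. Within the upper follicle class, Klk7 had 232 against 273 CPM in the cluster led by Defb6, Cst6 and Krt79. In the cluster whose leading genes include histone genes it had 139 against 95.9 CPM, below the spinous level in both libraries. Granular cells had 5.98 times the Klk7 level of upper follicle cells in the sitagliptin-labelled library and 6.33 times in the PBS-labelled library.

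Klk8, also called neuropsin, a trypsin-like enzyme, had 390 CPM against 452 CPM in granular cells, 163 against 166 CPM in spinous cells and 55.7 against 42.3 CPM in upper follicle cells. The step between granular and spinous cells was smaller than for Klk5, at 2.39 times (2.27 to 2.51) in the sitagliptin-labelled library and 2.72 times (2.55 to 2.91) in the PBS-labelled library.

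Klk11, another trypsin-like member, was spread more evenly over the interfollicular layers. It had 112 CPM against 99.9 CPM in granular cells, 72.9 against 53.5 CPM in spinous cells and 38.2 against 31.8 CPM in basal cells, but only 12.9 against 11.3 CPM in upper follicle cells. The granular level was 1.53 times the spinous level in the sitagliptin-labelled library (1.41 to 1.66) and 1.86 times in the PBS-labelled library (1.63 to 2.13), and it was 8.64 and 8.81 times the level of the upper follicle.

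Klk10, a further secreted kallikrein, followed a different order. It had 22 CPM against 20 CPM in basal cells, 17.3 against 14.8 CPM in upper follicle cells, 11.7 against 12.5 CPM in spinous cells and 7.14 against 12.2 CPM in granular cells. Its granular level was 0.324 times the basal level in the sitagliptin-labelled library (0.240 to 0.432) and 0.608 times in the PBS-labelled library (0.430 to 0.841), the reverse of the other 5 members. The basal and upper follicle levels had overlapping intervals in the sitagliptin-labelled library and separate ones in the PBS-labelled library.

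In the upper follicle class Klk10 was also the member whose UMIs lay in the fewest cells. There, 5 cells held 99 of 208 Klk10 UMIs in the sitagliptin-labelled library, which is 47.6%, and 52 of 150, or 34.7%, in the PBS-labelled library. The corresponding shares for the other 5 members ranged from 8.57% to 11.8% and from 11.8% to 15.4%. Within that class, Klk10 had 32.4 CPM against 26.3 CPM in the cluster led by Defb6, Cst6 and Krt79, and 4.07 against 4.64 CPM in the cluster whose leading genes include histone genes of dividing cells. In granular cells of the PBS-labelled library, 5 cells held 23 of the 43 Klk10 UMIs. In basal cells the counts were not so concentrated, with 5 cells holding 8.91% of 202 UMIs against 9.52% of 273 UMIs.

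Spink5, like Klk5, Klk8 and Klk11, was highest in granular cells and next highest in spinous cells among the named keratinocyte classes. An unnamed cluster with more Spink5 is described below. It had 2482 CPM against 2282 CPM in granular cells, 508 against 392 CPM in spinous cells, 201 against 199 CPM in upper follicle cells and 74.4 against 44.5 CPM in basal cells. The granular level was 4.88 times the spinous level in the sitagliptin-labelled library (4.77 to 5) and 5.83 times in the PBS-labelled library (5.62 to 6.04).

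**Figure D1:**
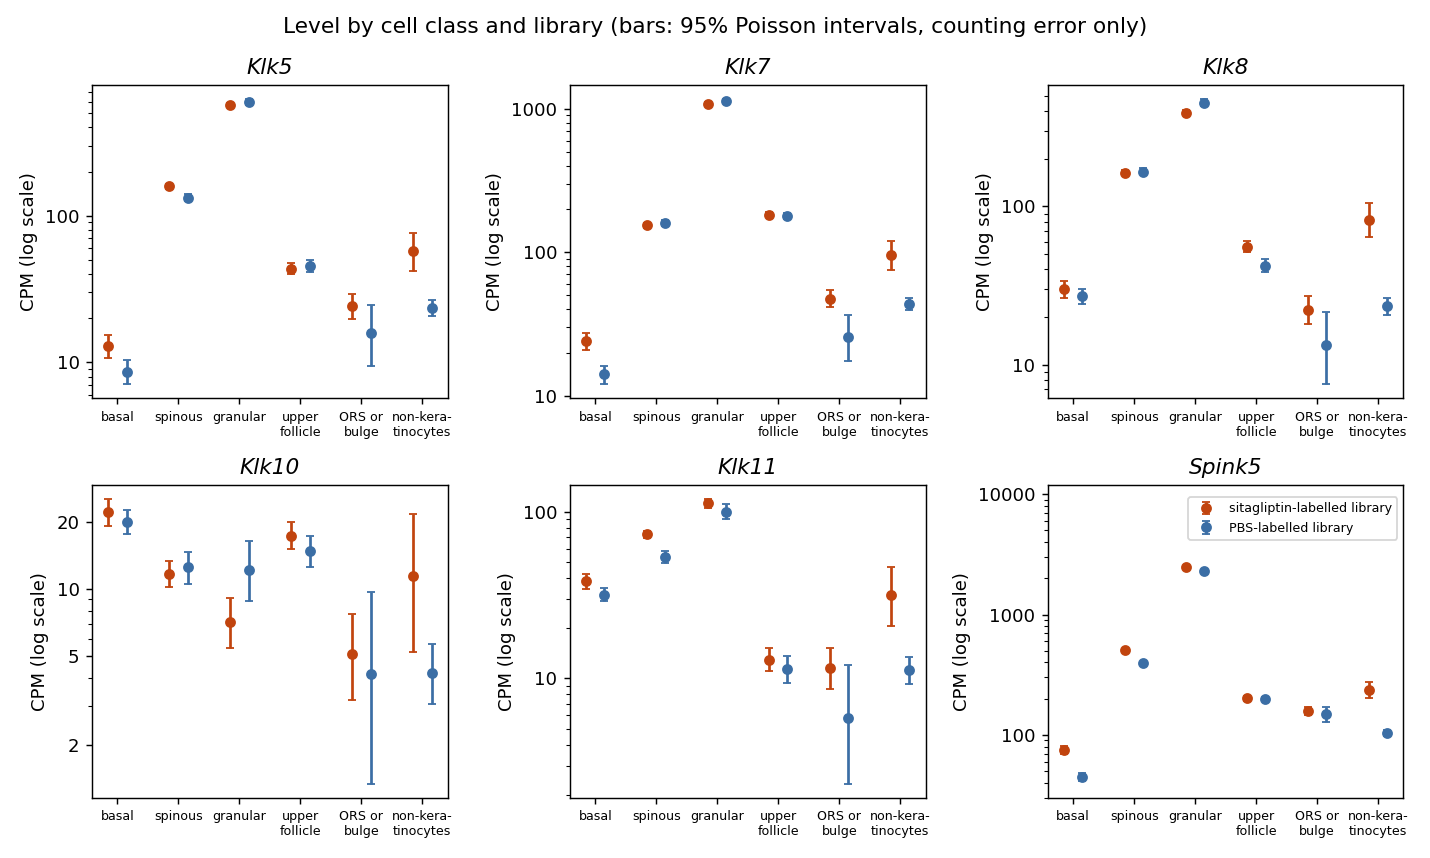
Level of each gene (CPM, log scale, with a different range in each panel) in 6 groups of cells, in the sitagliptin-labelled library (left point of each pair) and the PBS-labelled library (right point); bars are 95% Poisson intervals. Klk5, Klk7, Klk8, Klk11 and Spink5 peak in granular cells in both libraries, while Klk10 is highest in basal cells, at 22 and 20 CPM; ORS stands for outer root sheath.

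RNA of these genes was also counted in cells not known to make them. Non-keratinocytes, which were 219 cells in the sitagliptin-labelled library and 1804 in the PBS-labelled library, had 236 CPM of Spink5 against 103 CPM, 95.2 against 43.5 CPM of Klk7, 57.1 against 23.5 CPM of Klk5 and 82.5 against 23.4 CPM of Klk8. Their median depth was 2170 UMIs against 4314 UMIs per cell. In the sitagliptin-labelled library the upper follicle levels of Klk5, Klk8, Klk11 and Spink5 were below those of non-keratinocytes, though the intervals overlapped for Klk5 and Spink5. Klk7 and Klk10 stood above them there, and the interval of Klk10 in non-keratinocytes (5.22 to 21.7 CPM) reached past its upper follicle level. In the PBS-labelled library Klk5, Klk7, Klk8, Klk10 and Spink5 were above the non-keratinocyte level in the upper follicle, and Klk11 was not separable from it, at 11.3 CPM in upper follicle cells and 11.2 CPM in non-keratinocytes. Basal levels of Klk5, Klk7 and Spink5 were below the non-keratinocyte level in both libraries.

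To compare cells of unequal depth, each cell was thinned to 1000 UMIs and the share of cells with at least 1 UMI was taken. At least 1 of the 5 kallikreins was detected in 82.2% of granular cells of the sitagliptin-labelled library (78.8% to 85.3%) and 81.4% of those of the PBS-labelled library (75.5% to 86.4%, Clopper-Pearson). Spinous cells had 35.9% against 36.0%, and upper follicle cells 18.9% against 17.8%. The 2 libraries were alike in each of these classes to within their intervals, but in non-keratinocytes the shares were 24.7% and 7.48%, so the upper follicle share lay below that of non-keratinocytes in the sitagliptin-labelled library and above it in the PBS-labelled library. Without thinning, Klk7 alone was detected in 93.5% against 87.6% of granular cells, 42.9% against 41.3% of spinous cells and 34.3% against 41.4% of upper follicle cells.

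Spink5 and Klk7 tended to be detected in the same granular cells. After thinning, Klk7 was found in 61.8% of granular cells with Spink5 and 39.6% of those without it in the sitagliptin-labelled library, and in 57.7% and 32.8% in the PBS-labelled library. For Klk5 the shares were 45.6% with and 27.9% without Spink5 in the sitagliptin-labelled library, and 51.7% and 42.6%, with overlapping intervals, in the PBS-labelled library. In upper follicle cells Klk7 was found in 37.1% of cells with Klk5 against 10.8% of cells without it in the sitagliptin-labelled library, and in 41.9% against 11.6% in the PBS-labelled library. At least 2 kallikreins were found in 46.8% of granular cells of the sitagliptin-labelled library and 47.6% of those of the PBS-labelled library.

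Among spinous and granular cells together, the members were set against the share of a cell's UMIs that came from the 10 granular markers, in 4 ranges divided at 0.671, 1.92 and 6.98 such UMIs per 10000. Klk7 had 96.6, 141, 307 and 1231 CPM from the lowest to the highest range in the sitagliptin-labelled library and 86.9, 202, 401 and 1479 CPM in the PBS-labelled library. Spink5 had 344, 517, 812 and 2802 CPM in the sitagliptin-labelled library and 264, 468, 939 and 2842 CPM in the PBS-labelled library. Both genes climbed at every step in both libraries.

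The members differed in how steep that climb was. The highest range was 12.7 times the lowest for Klk7 in the sitagliptin-labelled library and 17 times in the PBS-labelled library, 8.14 and 10.8 times for Spink5, 4.68 and 5.73 times for Klk5, 2.85 and 3.49 times for Klk8, and 1.53 and 1.86 times for Klk11. Klk10 had 0.683 times (0.466 to 0.995) in the sitagliptin-labelled library and 1.64 times (1.14 to 2.33) in the PBS-labelled library, where few cells held its UMIs. For the other 5 members the fold was smaller in the sitagliptin-labelled library, and the intervals of the 2 libraries were apart for Klk5, Klk7 and Spink5 and overlapped for Klk11. For Klk8 they were apart as well, at 2.64 to 3.08 against 3.21 to 3.80.

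**Figure D2:**
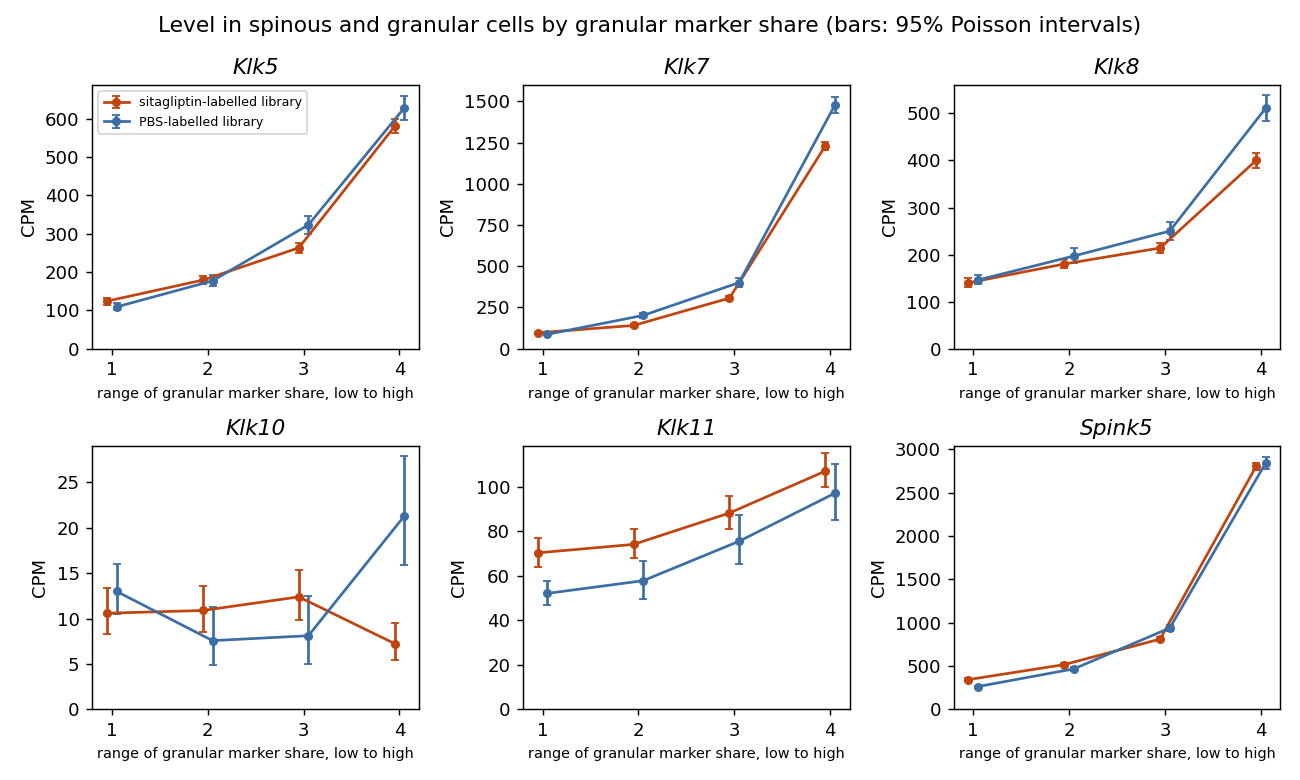
Level (CPM, linear axes from 0) of each gene in spinous and granular cells, in 4 ranges of the granular marker share from low (1) to high (4), in the sitagliptin-labelled and the PBS-labelled library; bars are 95% Poisson intervals. Klk7 and Spink5 climb most, to 1231 and 1479 CPM and to 2802 and 2842 CPM, Klk11 climbs little, and Klk10 reaches 21.3 CPM at most.

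The number of kallikrein UMIs per Spink5 UMI was compared between the layers. Counts of different genes are not levels per length, so only the change of this quotient between classes is read. It counts RNA and is not a measure of enzyme against inhibitor. The 5 kallikreins together had 171 UMIs per 100 Spink5 UMIs in basal cells of the sitagliptin-labelled library and 228 in those of the PBS-labelled library, 110 against 134 in spinous cells, and 87.3 (85.6 to 89.0) against 101 (97.5 to 104) in granular cells. The basal quotient rests in part on Klk5, Klk7 and Spink5, whose basal levels were below those of non-keratinocytes. The quotient was lower in granular than in spinous cells in both libraries, and it was lower in the sitagliptin-labelled library in each of these 3 layers, with intervals apart. In the upper follicle it was 155 (147 to 163) against 147 (139 to 156).

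Klk7 had its highest proportion to Spink5 in the upper follicle among the named classes. It had 90.5 UMIs per 100 Spink5 UMIs in upper follicle cells of the sitagliptin-labelled library and 89.9 in those of the PBS-labelled library, against 43.9 and 49.7 in granular cells and 40.3 and 42.1 in non-keratinocytes. The proportion in non-keratinocytes was near that in granular cells, and that in the upper follicle was above both. In sebocytes of the PBS-labelled library the proportion was 57.7 on 15 Klk7 UMIs, and its interval (28.4 to 113) covers the upper follicle value. In the basal layer Klk11 had a higher proportion than in non-keratinocytes, with 51.3 and 71.5 UMIs per 100 Spink5 UMIs against 13.4 and 10.8 in non-keratinocytes, and so did Klk10, with 29.6 and 45.0 against 4.84 and 4.09. The part of RNA from other cells in these counts was not tested.

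An unnamed cluster led by Krt75, a keratin of the companion layer of the follicle, had abundant Spink5 with little kallikrein RNA. It held 285 cells of the sitagliptin-labelled library and 13 of the PBS-labelled library, and was singled out after its values were seen. Spink5 had 2792 CPM there (2726 to 2859) in the sitagliptin-labelled library and 4203 CPM (3917 to 4504) in the PBS-labelled library. Both levels were above those of granular cells, at 2482 and 2282 CPM, with intervals apart. The 5 kallikreins together had 8.25 UMIs per 100 Spink5 UMIs (7.55 to 8.99) in the sitagliptin-labelled library, and Klk5 had 53.3 CPM, close to the 57.1 CPM of non-keratinocytes. The 13 cells of the PBS-labelled library held 804 Spink5 UMIs, against 11 of Klk5, 6 of Klk7 and 2 of Klk8.

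**Figure D3:**
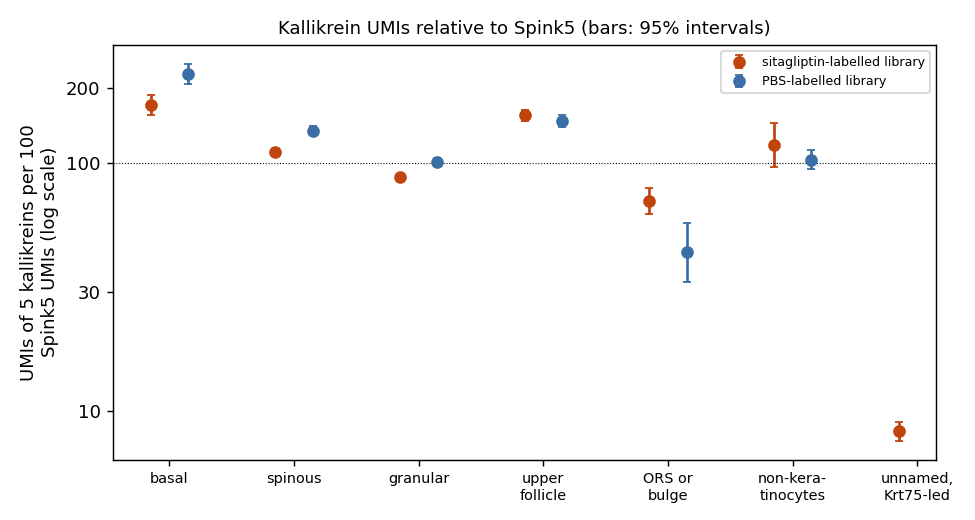
UMIs of the 5 kallikreins per 100 Spink5 UMIs (log scale) in 6 groups of cells and in the unnamed Krt75-led cluster, in the sitagliptin-labelled library (left point of each pair) and the PBS-labelled library (right point); bars are 95% intervals for counting error, and the dotted line marks 100. The quotient is lower in granular than in spinous cells in both libraries and is lowest, at 8.25, in the Krt75-led cluster, where the PBS-labelled library has too few cells to be drawn.

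Between the libraries, no member that passed the floor differed by 1.5 times or more in the granular, spinous or upper follicle class as a whole. The floor was a mean of 10 CPM over both libraries and 20 UMIs in all, and 5, 6 and 6 of the 6 members passed it in these 3 classes. Of all genes past the floor, 4.03% passed 1.5-fold upwards and 1.28% passed it downwards in granular cells of the sitagliptin-labelled library. The shares were 1.49% and 0.764% in spinous cells and 1.26% and 0.533% in upper follicle cells. A count of 0 among the 5, 6 and 6 members past the floor is close to what the shares of all genes give. The median log2 ratio was -0.06 over the 5 members in granular cells, 0.11 in spinous cells and 0.11 in upper follicle cells, beside 0.02, 0.02 and -0.01 over all genes.

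In granular cells the sitagliptin-labelled over PBS-labelled ratio was 0.949 for Klk5 (0.902 to 0.999), 0.962 for Klk7 (0.927 to 0.998) and 0.862 for Klk8 (0.812 to 0.916). It was 1.12 for Klk11 (0.988 to 1.27) and 1.09 for Spink5 (1.06 to 1.12). Klk10, below the floor, had 62 UMIs in the sitagliptin-labelled library and 43 in the PBS-labelled library and a ratio of 0.587 (0.391 to 0.887). With the processing reported here, the 3 enzymes Klk5, Klk7 and Klk8 were thus a little lower and the inhibitor a little higher in the sitagliptin-labelled library. The ratios of Klk5, Klk7 and Klk8 were below 1 in 13 of 13 alternatives, and those of Klk7 and Klk8 passed 1.5-fold lower, at 0.582 and 0.604, when genes were scaled within each library before clustering, which left 361 and 58 granular cells. That of Spink5 turned below 1 in 9 of 13, down to 0.74. The reported ratios of Klk5, Klk7 and Spink5 were at or above the highest of their alternatives, which were 0.947, 0.962 and 1.09.

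In spinous cells the largest ratios were those of Klk11 at 1.36 (1.24 to 1.5) and Spink5 at 1.30 (1.25 to 1.34), while Klk5 had 1.19, Klk8 0.984, Klk7 0.962 and Klk10 0.937. That class joins a cluster led by Krt6b and Krt16 (760 against 576 cells) and one led by Serpinb12 and Tesc (770 against 272). In the same order the ratio was 1.29 and 1.15 for Spink5, 1.47 and 1.31 for Klk11 and 1.23 and 1.05 for Klk5. Klk7 had 0.873 and 0.989, Klk8 1.0 and 1.04 and Klk10 1.08 and 0.891. The Spink5 ratio of the whole class was not below that of either cluster, and the part of the class makeup was not tested. In upper follicle cells Klk8 had 1.32 (1.16 to 1.49) and the other 5 members lay between 0.965 and 1.17. The clusters of that class differed, however. In the cluster led by Defb6, Cst6 and Krt79 the ratio was 0.732 for Klk5, 0.849 for Klk7, 0.914 for Klk8 and 0.83 for Spink5. In the cluster with histone genes it was 1.4, 1.45, 1.74 and 1.35 in the same order, so Klk8 was past 1.5-fold there. Klk10 had 1.24 and 0.877 and Klk11 1.02 and 1.32 in these clusters, both below the floor in the latter. Thinning took Klk8 in the upper follicle to 1.99 and Klk10 there to 0.549, with few UMIs left, and Klk10 in spinous cells to 1.73; a limit of 5% mitochondrial UMIs took Spink5 in spinous cells to 1.52.

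The basal class had 3 of 6 members 1.5-fold or more higher in the sitagliptin-labelled library and 0 lower by that much, beside 1.99% and 0.716% of all genes. They were Klk5 at 1.5, Klk7 at 1.70 and Spink5 at 1.67. These are the 3 members whose basal level lay below that of non-keratinocytes in both libraries, while Klk8 lay below it in the sitagliptin-labelled library only. In non-keratinocytes themselves the ratios of Klk5, Klk7 and Spink5 were 2.43, 2.19 and 2.29. Those of Klk8, Klk10 and Klk11 were higher there, at 3.53, 2.71 and 2.84, with Klk10 below the floor. The basal ratios of Klk8, Klk10 and Klk11 nevertheless all lay within 1.5-fold, with Klk8 at 1.11. The basal clusters differed. In that led by Igfbp3 the ratio was 1.56 for Klk5, 1.95 for Klk7 and 1.8 for Spink5. In that led by Ube2c and Aspm it was 1.09 (0.644 to 1.83, below the floor), 1.53 and 1.39. In the smallest, led by Fam13a, it was 2.53, 0.811 and 2.15. Among the 4 members past the floor in the outer root sheath or bulge class, 3 were 1.5-fold or more higher and 0 lower, beside 5.77% and 5.38% of all genes, with Klk5 at 1.53, Klk7 at 1.85 and Klk8 at 1.68. The Klk5 and Klk8 intervals there included 1, and the levels of all 3 were below those of non-keratinocytes in both libraries. The 10 granular markers summed to 123 against 48.9 CPM in basal cells and to 183 against 66.4 CPM in outer root sheath or bulge cells. The part of RNA from other cells in these ratios was not tested.

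**Figure D4:**
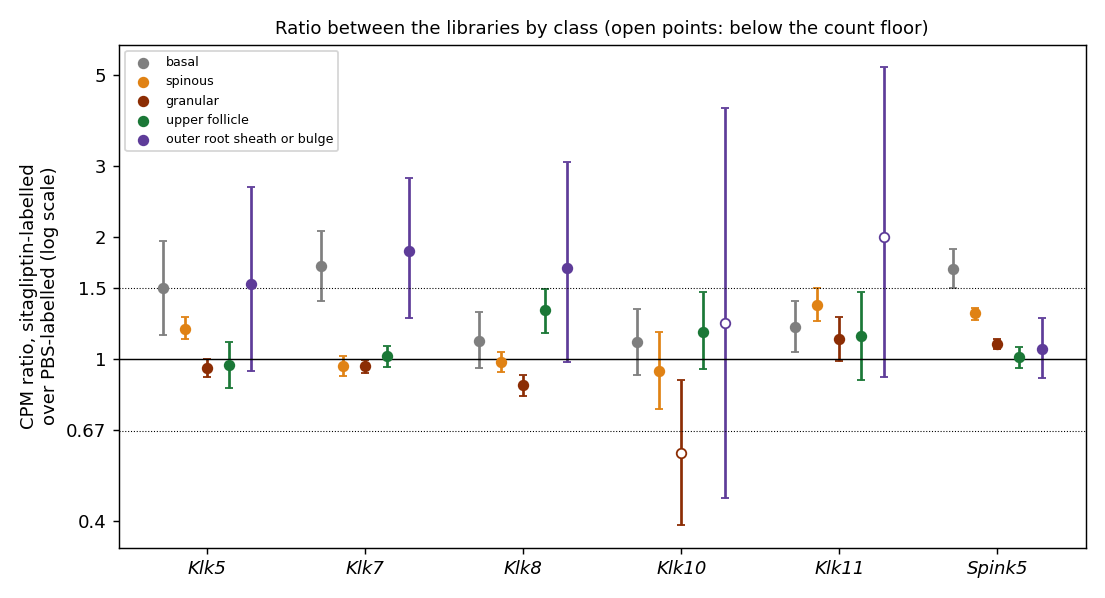
Sitagliptin-labelled over PBS-labelled CPM ratio (log scale) of each gene in 5 keratinocyte classes; bars are 95% intervals for counting error, open points are below the floor, and dotted lines mark 1.5-fold. Granular, spinous and upper follicle points past the floor lie within 1.5-fold, and the basal points of Klk7 (1.70) and Spink5 (1.67) lie above it.

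**Figure D5:**
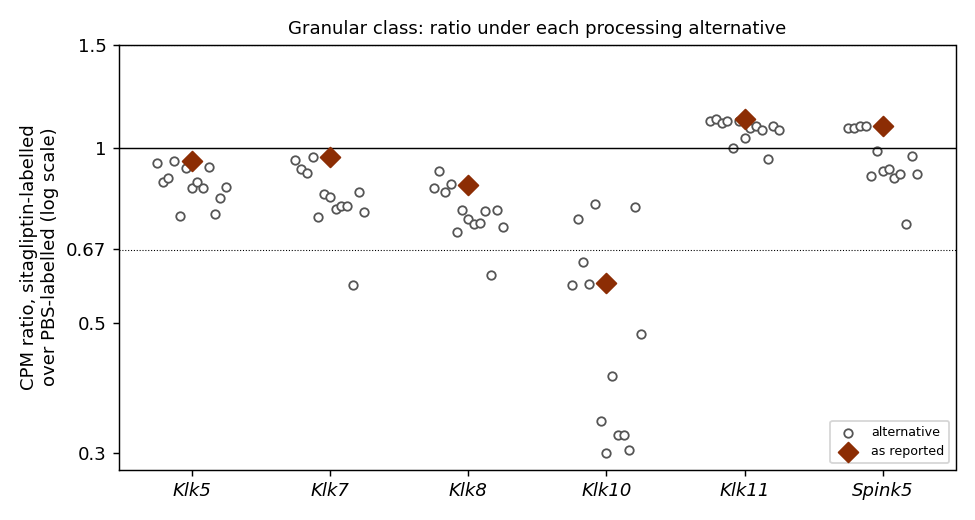
Sitagliptin-labelled over PBS-labelled CPM ratio (log scale) of each gene in granular cells as reported (diamond) and under each of 13 alternative processing choices (open circles); dotted lines mark 1.5-fold. Klk5, Klk7 and Klk8 lie below 1 throughout, Klk10 lies between 0.3 and 0.8, and Spink5 falls on both sides of 1.

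Genes that act beside the members were taken from 4 lists. Of 21 other kallikreins, 2 passed the floor in granular cells. Klk6 had 80.1 CPM in the sitagliptin-labelled library against 137 CPM in the PBS-labelled library, a ratio of 0.583 (0.518 to 0.656), and Klk9 had 48.8 against 71.0 CPM, a ratio of 0.687 (0.587 to 0.807). The Klk6 ratio was below 1 in 13 of 13 alternatives, between 0.254 and 0.684, and that of Klk9 in 12 of 13, between 0.331 and 1.01. Klk6 was higher in granular than in spinous cells, as were Klk5, Klk7, Klk8 and Klk11 but not Klk10. In spinous cells it had 2.83 against 3.32 CPM, and in upper follicle cells it had 15.2 against 11.4 CPM.

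Of 18 other Kazal-type and epidermal protease inhibitors, 5 passed the floor in granular cells. None differed by 1.5 times, beside 4.03% higher and 1.28% lower of all genes. Serpina12, a serpin known in human skin as an inhibitor of KLK7, had 275 against 229 CPM. Spint2, an inhibitor of membrane serine proteases, had 179 against 202 CPM, Serpinb8 had 93.7 against 96.7 CPM and Wfdc5 93.4 against 95.3 CPM. Of 16 membrane and other epidermal proteases, 12 passed, 1 was at least 1.5-fold higher, 1 at least 1.5-fold lower, and the median log2 ratio was -0.14, beside 4.03%, 1.28% and 0.02 over all genes. Htra1, a secreted serine protease, had 24.3 against 12.2 CPM (ratio 2, 1.43 to 2.84), and Ctsl, a lysosomal cysteine protease, had 159 against 253 CPM (ratio 0.629, 0.578 to 0.685). Over 13 alternatives the Htra1 ratio ran between 1.07 and 4.15, and the Ctsl ratio between 0.24 and 1.29, with its highest value after thinning, so that neither call of 1.5-fold held in all of them. Asprv1, an aspartic protease of the granular layer, had 1405 against 1668 CPM, Ctsd 504 against 552 CPM, Tmprss4 394 against 463 CPM and Casp14, a caspase of the cornifying layers, 216 against 238 CPM.

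The genes of proteins that kallikreins cut lay within 1.5-fold between the 2 libraries in granular cells. Of 10 known substrates, 8 passed the floor there and none differed by 1.5 times, beside 4.03% higher and 1.28% lower of all genes. The median log2 ratio was 0.07, beside 0.02 over all genes. The ratios ran from 0.803 for Il18 to 1.45 (1.25 to 1.69) for F2rl1, at 90.1 against 62.2 CPM. Dsg1a, a desmoglein, had 1466 against 1408 CPM, Cdsn, the corneodesmosin gene, 955 against 906 CPM, Dsc1, a desmocollin, 341 against 318 CPM and the tight junction gene Cldn1 181 against 161 CPM. In spinous cells 0, 4, 10 and 7 members of the lists of kallikreins, inhibitors, proteases and substrates passed the floor, and in upper follicle cells 1, 3, 10 and 7. None of them differed by 1.5 times in either class. Of all genes, 1.49% were higher and 0.764% lower by that much in spinous cells, and 1.26% and 0.533% in upper follicle cells. Counts of 0 are close to what such shares give. The median log2 ratio of the substrates was 0.26 in spinous and -0.16 in upper follicle cells, beside 0.02 and -0.01 over all genes.

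Across 24 sums of cells, one for each class or unnamed cluster of at least 50 cells in each library, the members were compared by Pearson's r of log2(CPM + 1). These sums share 2 libraries and their free RNA, so r is a description. Klk5 had an r of 0.96 with Klk8 and 0.94 with Klk7, and Klk7 and Klk8 had 0.91. Spink5 had 0.90 with Klk5, 0.85 with Klk7 and 0.83 with Klk8, and Klk11 had 0.87 with Klk8. Klk10 stood apart, with values between 0.24 for Spink5 and 0.65 for Klk11, its neighbour on the chromosome.

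Among 11429 genes, those most like Klk5 were Dkkl1 (r 0.978), Ppfia3, Vsig10l, Otop3 and Krt77. Those most like Klk7 were 2310046K23Rik (0.964), the desmocollin gene Dsc1, the cornified envelope gene Sprr1a, the tight junction gene Cldn4 and Gsdma. Klk8 was most like Calm4 (0.984), Krtdap, Map2, the transcription factor gene Grhl3 and Pla2g2f. Klk11 was most like Ttc9 (0.959), Hsf2, Ggct, Fam25c and the suprabasal keratin gene Krt1. Spink5 was most like Cited4 (0.955), the corneodesmosin gene Cdsn, Clip1, Homer2 and Clic3. For Klk10 no gene reached such values, and the nearest was Gm45792 at 0.773, followed by Btbd3, Chac2, Tubb4b and Cdc42ep5.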

How the data were processed

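Whole-skin cells were captured on Chromium 10X, 1 library per treatment. The authors deposited raw counts, as UMIs per gene and barcode, with mm10 as the genome build and Cell Ranger 3.1.0 as the tool, per the submitters' processing notes. Cells were filtered as described above and clustered with scanpy 1.11.5 (2000 variable genes without mitochondrial, Klk and Spink genes, 30 principal components, 15 neighbours, Leiden resolution 1). A cluster was named where its best marker list scored at least 0.3 and led by 0.05, with at least 3 markers detected, thresholds set after seeing the data; 8 of 28 clusters stayed unnamed. Scrublet called 0 of 18380 and 2 of 5932 cells, so it has not worked and doublets remain. Counts were summed per class and library and divided by total UMIs. Intervals are exact at 95% (Poisson, conditional binomial or Clopper-Pearson). Total depth was 95047000 UMIs in the sitagliptin-labelled library and 70729930 in the PBS-labelled library. The text names the 6 members in every class, the 4 list members with most UMIs and any past 1.5-fold, and the 5 genes of highest r per member. It also names the substrates of lowest and highest ratio in granular cells. The 1.5-fold rule and the ratio intervals were tested on simulated Poisson counts in the granular, spinous and upper follicle classes. Clustering, naming and the other steps were not tested on simulated data. The members and lists were chosen with earlier results of these data known.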

Additional observations from a re-analysis of the deposited data

How the results depend on the processing

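Sitagliptin-labelled over PBS-labelled ratios in granular cells moved by more than their counting error as follows. Cells of 1000 genes and 2000 UMIs or more gave ratios that were 0.851 for Klk5, 0.793 for Klk7, 0.743 for Klk8, 0.322 for Klk10 and 0.886 for Spink5, and with at most 5% mitochondrial UMIs 0.795 for Klk7, 0.780 for Klk8, 0.322 for Klk10 and 0.901 for Spink5. At Leiden resolution 0.5 they were 0.851, 0.824, 0.754, 0.3 and 0.910 for Klk5, Klk7, Klk8, Klk10 and Spink5, and at resolution 2 they were 0.872, 0.785, 0.739 and 0.918 for Klk5, Klk7, Klk8 and Spink5. Genes scaled within each library gave 0.769 for Klk5, 0.582 for Klk7, 0.604 for Klk8, 0.304 for Klk10, 0.955 for Klk11 and 0.740 for Spink5. Klk and Spink genes in the clustering gave 0.820, 0.839, 0.782 and 0.967 for Klk5, Klk7, Klk8 and Spink5, and leaving out the highest 8% of doublet scores 0.857, 0.776, 0.731 and 0.900. Thinning to 1000 UMIs gave 0.874 for Klk5 and 0.918 for Klk7, and the mean of per-cell CPM 0.888 and 0.906. Of 2 choices made after seeing the data, adding the unnamed cluster led by Hrnr and Flg2 gave 0.764 for Klk5, 0.760 for Klk7, 0.718 for Klk8 and 0.894 for Spink5, and taking the range of highest granular marker share gave 0.832 for Klk7, 0.782 for Klk8, 0.340 for Klk10 and 0.986 for Spink5. The Ctsl ratio turned to 1.29 under thinning, against 0.629. Without the CPM floor 1460 genes in granular, 1105 in spinous and 968 in upper follicle cells were past 1.5-fold. The cause of these shifts was not tested, apart from the removed floor, which lets in genes of few UMIs. Genes scaled within each library left 10 spinous cells in the PBS-labelled library, and no ratio was taken there. No paired analysis was possible because each treatment has 1 library.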
